A study of Sus scrofa with 24 samples.

Results

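Expression of 10 genes of fatty acid synthesis, desaturation and elongation was described in the hippocampus of small and appropriately sized newborn piglets: ACACA, FASN, ELOVL6, SCD, FADS1, FADS2, ELOVL2, ELOVL5, ELOVL1 and ELOVL4. They were chosen by pathway and found by matching the gene identifiers of the count tables to pig symbols, which gave all 10 among 38882 listed genes. Hippocampi came from 24 piglets (PIC Camborough dam x PIC 359 sire) on postnatal day 14, 12 male and 12 female. Each litter gave a pair of piglets of the same sex, one small for gestational age (SGA) and the other appropriate for gestational age (AGA) by birth weight. The formula was either a control diet (CON), with its fat mainly as triglyceride oils, or a hydrolyzed fat diet (HF) of equal fat content. HF kept part of its fat as triglyceride oils, beside free fatty acids, monoacylglycerol, lecithin and cholesterol. Each of the 4 groups, AGA and SGA on CON and AGA and SGA on HF, held 6 piglets. The 12 litters arrived in 2 cohorts, and each litter received a single diet, so size was compared within litters and diet between them. Fatty acids were measured in other, older piglets of the study and were not analysed here, so no transcript level could be set against a lipid level of the same animal.

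Fatty acids are built from acetyl-CoA: ACACA makes malonyl-CoA, FASN condenses it into palmitate, and ELOVL6 extends palmitate to stearate. SCD places the first double bond into these saturated chains. The polyunsaturated fatty acids of neural membranes, arachidonic and docosahexaenoic acid, come either from the diet or from shorter essential precursors, through the desaturases FADS2 and FADS1 and the elongases ELOVL5 and ELOVL2. ELOVL1 and ELOVL4 make very long chains, which in brain go largely into sphingolipids, myelin lipids among them.

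The libraries held 6017336 to 9284355 reads assigned to genes (median 7346072.5), so that 3 reads correspond to between 0.323 and 0.499 CPM. CPM are counts scaled to a common library size, and levels below are CPM after TMM scaling, a correction for library composition. Defining markers of neurons, astrocytes and oligodendrocytes were above 0 in every library. In bulk tissue, fewer cells of a type and less RNA per cell cannot be told apart. The library of SGA HF replicate 4 stood apart by growth hormone (GH1), at 305.8 CPM against at most 5.05 CPM elsewhere, and calls of the paired and cohort comparisons below are also given without its litter (litter 7).

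Per kilobase of annotated exon (RPKM, that is CPM per kilobase), the desaturases and ELOVL1 stood highest. FADS2 lay at 167 ± 21.3 RPKM (SD, n = 24), above ELOVL1 in all 24 libraries. ELOVL1 followed at 87.1 ± 17.96 RPKM and SCD at 67.6 ± 13.0 RPKM, in this order in 20 of 24 libraries. FADS1 (39.3 ± 7.60 RPKM), FASN (33.8 ± 6.08 RPKM) and ELOVL2 (31.95 ± 4.80 RPKM) formed a middle tier in which neighbours overlapped: FADS1 exceeded FASN in 18 of 24 libraries, and FASN exceeded ELOVL2 in 15. ACACA (9.04 ± 1.62 RPKM) and ELOVL5 (8.28 ± 2.21 RPKM) lay close together, and ELOVL4 was low at 2.16 ± 0.561 RPKM. ELOVL6 had 58 reads in the 24 libraries together and at most 6 in any of them. It was at 0 in 3 libraries and at or under 3 reads in 16, so its groups could not be compared. Its model in this annotation has only 253 bases of exon, against 6618 for ACACA. Any effect of RNA quality or exon length on the order of the genes was not tested.

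**Figure D1:**
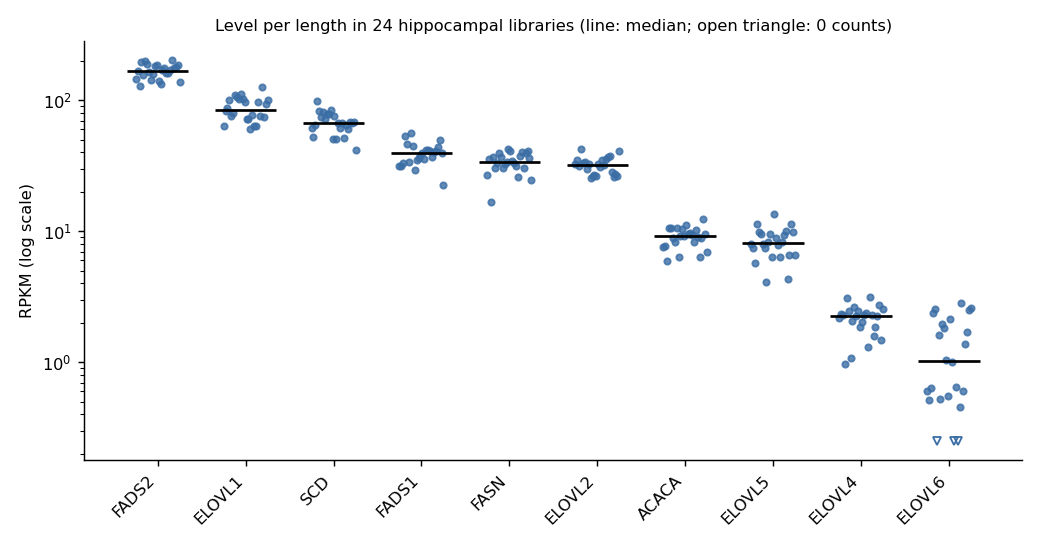
Level of each gene per kilobase of annotated exon (RPKM, log axis), 1 point per library, 24 libraries, genes in order of their mean, with a line at the median and open triangles for libraries at 0 counts. FADS2 stood at the top with a mean of 167 RPKM, and ELOVL4 (2.16) and ELOVL6 (1.25) stood lowest.

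On Sscrofa10.2, the assembly of the count files, both desaturases lie on chromosome 2. FADS2 (gene 444997) spans chr2:9119484-9152213 on the plus strand, and FADS1 (gene 444995) spans chr2:9250849-9262860 on the minus strand, 98635 bases away. An exon of FADS2 overlaps the uncharacterized LOC100739565 on the opposite strand, and the counting used strand. ACACA (gene 397324, chr12:40200228-40401426) and FASN (gene 397561, chr12:1023512-1032662) share chromosome 12. SCD (gene 396670) lies at chr14:120964681-120980911, ELOVL1 (gene 100312969) at chr6:155333073-155340903 and ELOVL2 (gene 100153368) at chr7:7976965-8025779. ELOVL4 (gene 100511670) lies at chr1:96867779-96896868, ELOVL6 (gene 100312970) at chr8:120119621-120219554, and ELOVL5 (gene 100171403) at bases 45724 to 69576 of an unplaced scaffold. All counts were taken over exons.

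The first question was whether size, diet or their interaction changed these transcripts across all 4 groups. In edgeR's quasi-likelihood fit, 0 of the 9 tested genes passed adjusted p < 0.4, the threshold the study used for its heat map of genes, in any of 7 comparisons, with or without the library of SGA HF replicate 4. The adjusted p is Benjamini-Hochberg adjusted over all genes and over the comparisons of a fit (within each comparison for litter sums). Few genes of any kind passed: 0.478% of 16326 tested genes for the main effect of size, 0.159% for diet, 0.049% for the interaction, 0.129% for size on CON, 0.288% for size on HF, 0.0674% for diet in AGA and 0.0919% for diet in SGA piglets. At unadjusted p < 0.05, 1 of 9 members passed for size (background 10.6%), diet (7.09%), size on CON (6.59%) and size on HF (8.02%), and 0 for the other 3 comparisons (4.01%, 6.09% and 5.16%). These were FADS1 for size and for size on CON, ACACA for diet and FASN for size on HF. The members' median log2 difference for size was 0.0055, against -0.0023 for all tested genes, and for diet -0.0089 against 0.0020.

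**Figure D2:**
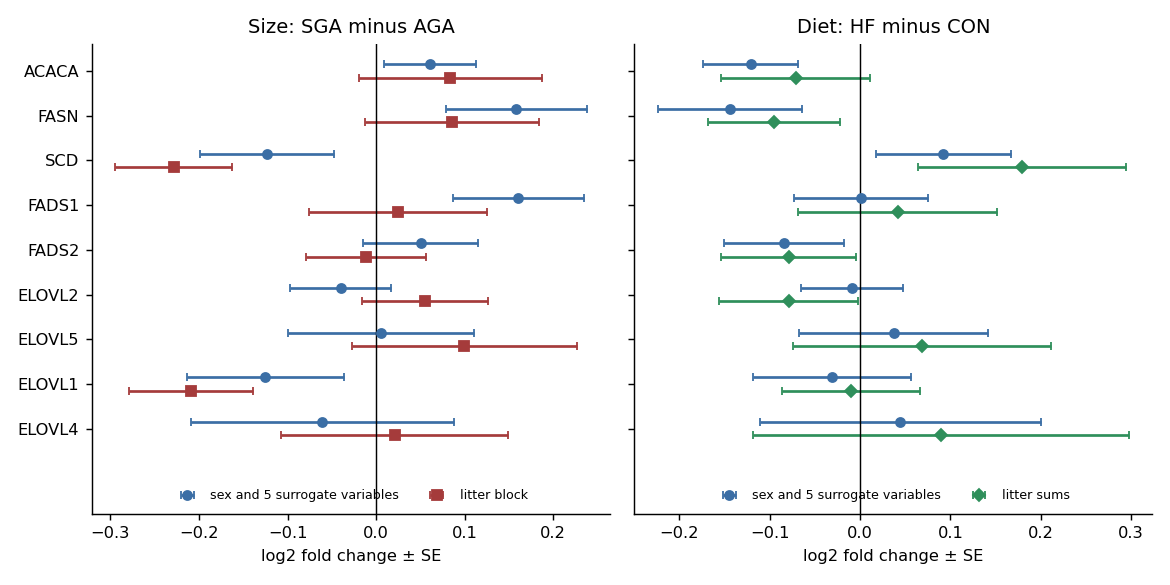
Log2 fold change ± SE for the 9 tested genes, for size (SGA minus AGA, left) and diet (HF minus CON, right), in the fit over all groups with sex and 5 surrogate variables (circles), with the litter as a block (squares) and over litter sums (diamonds). SCD and ELOVL1 lay below 0 for size in both fits, and within litters SCD was at -0.23.

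De novo synthesis came first. ACACA, the enzyme that commits acetyl-CoA to fatty acid synthesis, had a lowest, median and highest level of 51.0, 60.6 and 70.5 CPM in AGA CON and of 39.2, 52.5 and 70.1 CPM in AGA HF. In SGA CON these were 42.0, 62.6 and 81.7 CPM, and in SGA HF 54.5, 61.8 and 73.5 CPM. All 4 groups overlapped. Its diet difference was -0.12 on the log2 scale (SE 0.0523, 95% interval -0.23 to -0.01, unadjusted p = 0.0307, edgeR adjusted p = 0.684). With the 2 littermates summed, so that the litter was the unit, ACACA differed by -0.07 (SE 0.0824, unadjusted p = 0.401).

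FASN, the palmitate synthase, ranged from 134 to 177 CPM in AGA CON (median 149) and from 69.6 to 164 CPM in AGA HF (median 126). It ranged from 102 to 170.4 CPM in SGA CON (median 137) and from 108 to 168 CPM in SGA HF (median 156). The groups overlapped, and the lowest of the 24 values was that of AGA HF replicate 2. On HF, the SGA minus AGA difference of FASN was 0.24 (SE 0.111, unadjusted p = 0.0426, edgeR adjusted p = 0.719). SGA piglets had more FASN than their littermates in 5 of 6 litters on HF and in 2 of 6 on CON, with mean log2 differences of 0.31 and -0.13. The contrast between diets gave an exact permutation p of 0.104, and within litters the edgeR interaction was 0.43 (SE 0.197, unadjusted p = 0.0429, adjusted p = 0.597). Litter 3, that of AGA HF replicate 2, had the widest FASN difference on HF. Without it the mean difference between HF littermates was 0.17, the fit over all groups gave 0.16 on HF (SE 0.0983, unadjusted p = 0.119) and the paired interaction was 0.29 (unadjusted p = 0.134). Without litter 7 the difference on HF was 0.24 over all groups (unadjusted p = 0.0502) and 0.35 in the paired fit (unadjusted p = 0.0370, edgeR adjusted p = 0.645).

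Litter 5 (HF) changed the calls of FASN and ACACA in the fit over all groups, which does not use litter, and it changed the calls of all genes as well. Without it, FASN passed for size (0.19, edgeR adjusted p = 0.362), where 7.75% of all tested genes did, for size on HF (0.33, adjusted p = 0.287, background 6.82%) and for diet in AGA piglets (-0.25, adjusted p = 0.391, background 4.55%). ACACA passed for diet (-0.15, edgeR adjusted p = 0.258, background 4.66%) and for diet in AGA piglets (-0.18, adjusted p = 0.378). These calls were not made with the litter in the model. The paired fit without litter 5 gave FASN 0.40 on HF (edgeR adjusted p = 0.413), which did not pass, and litter sums without litter 5 called 0 of 9 members for diet.

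SCD, the stearoyl-CoA desaturase that makes oleate, had the smallest p of the 9 members in the comparison of littermates, and it was lower in the SGA piglets. On CON, the AGA piglets of replicates 1 to 6 were at 268.1, 500.8, 378.8, 365.1, 399.3 and 257.9 CPM, and their SGA littermates were at 260.0, 313.5, 261.8, 308.1, 344.4 and 211.7 CPM. The SGA piglet was the lower one in all 6 CON litters, although the 2 groups overlapped. On HF, AGA piglets were at 314.1, 329.1, 425.0, 413.2, 398.5 and 427.9 CPM, and SGA littermates at 390.0, 342.6, 342.4, 333.0, 350.0 and 347.5 CPM. The SGA piglet was lower in 4 of 6 HF litters, the exceptions being replicates 1 and 2. Over the 12 litters the mean difference was -0.23 (SE 0.0741) with SGA lower in 10 of 12, by a two-sided exact sign-flip permutation test p = 0.0151, adjusted over all genes 0.269, where the smallest possible p is 0.000488. The difference was -0.20 in cohort 1 alone (exact permutation p = 0.312) and -0.26 in cohort 2 alone (exact permutation p = 0.0312, the smallest that 6 litters allow). Without the litter of SGA HF replicate 4 it was -0.22 (exact permutation p = 0.0273).

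**Figure D3:**
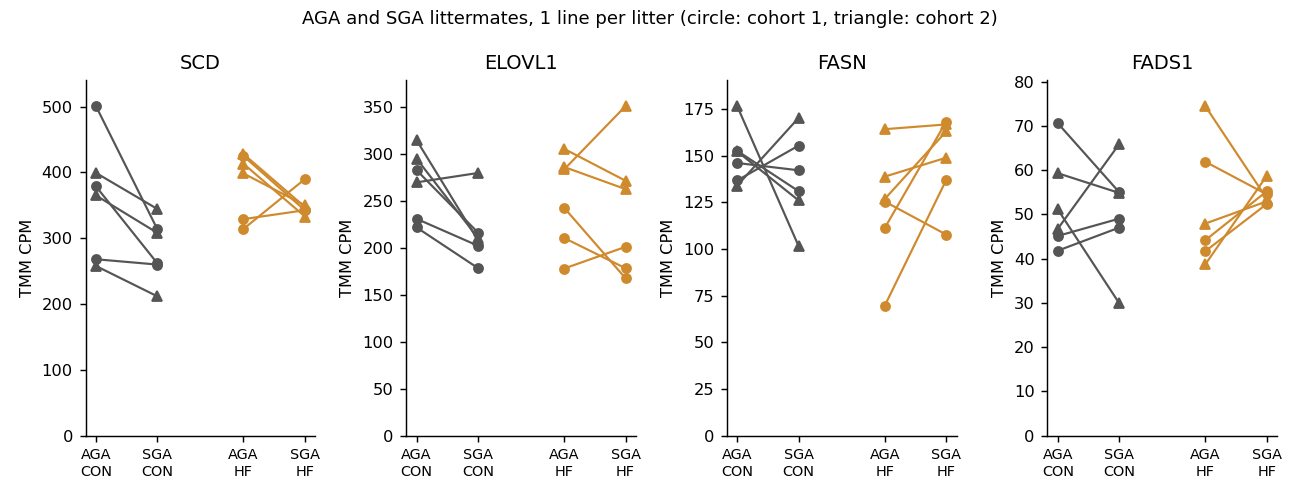
SCD, ELOVL1, FASN and FADS1 in each AGA piglet and its SGA littermate (TMM CPM), joined by a line per litter, for 6 CON (grey) and 6 HF (orange) litters, with circles for cohort 1 and triangles for cohort 2. SCD went down from AGA to SGA in all 6 CON litters and in 4 of 6 HF litters.

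The fit over all groups, which does not use litter, gave SCD a size difference of -0.12 (SE 0.0752, edgeR adjusted p = 0.806). With the litter as a replicate block, the paired design that the labels support, SCD was -0.23 (SE 0.0657, 95% interval -0.37 to -0.09) and passed at edgeR adjusted p = 0.328. It was 1 of 9 members called for size, where 2.57% of all tested genes were called, 1.52% as lower. On CON alone, the blocked fit called 2 of 9 members lower, SCD (-0.33, SE 0.0931, adjusted p = 0.315) and ELOVL1 (-0.32, SE 0.099, adjusted p = 0.390), against 0.876% of all genes called lower and 1.26% called in either direction. On HF it called 0 of 9 (background 0.888%), with SCD at -0.12 (adjusted p = 0.785). The interaction within litters was 0.21 for SCD (SE 0.131, unadjusted p = 0.131), and 0 of 9 members were called for it (background 0.276%), so a size effect that differs by diet was not shown.

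Which litters were in the blocked fit decided these calls. Without the litter of SGA HF replicate 4 (litter 7), SCD was -0.21 for size (edgeR adjusted p = 0.515) and -0.33 on CON (adjusted p = 0.422), and neither passed. SCD was lower in the SGA piglets in all 15 blocked alternatives tried, from -0.27 to -0.19, and passed the threshold for size in 5 of them. These 15, here and for ELOVL1 below, count the fit without litter 7 more than once. The call for size was lost without litter 4, 6, 7, 9, 10, 11 or 12 and in either cohort alone, with adjusted p of at least 0.439, and the call on CON without litter 4, 6, 7, 9, 10 or 12. Litters 7 and 9 were on HF and hold no CON piglets, and without litter 7 the SCD difference on CON stayed at -0.33.

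ELOVL1, the elongase of saturated and monounsaturated very long chains, followed SCD within litters. On CON, AGA piglets were at 231.0, 282.8, 221.8, 295.0, 314.7 and 269.8 CPM and their SGA littermates at 202.3, 216.2, 178.4, 210.5, 208.0 and 279.8 CPM. The SGA piglet was lower in 5 of 6 CON litters, all but replicate 6. On HF, AGA piglets were at 178.0, 242.8, 210.6, 305.5, 283.5 and 286.2 CPM and SGA littermates at 201.1, 167.6, 178.3, 271.5, 351.0 and 262.6 CPM, with SGA lower in 4 of 6. Over 12 litters the mean difference was -0.21 (SE 0.0811), SGA lower in 9 of 12, with an exact sign-flip permutation p of 0.0288 (adjusted over all genes 0.326). It was -0.25 in cohort 1 alone (exact permutation p = 0.0625), -0.17 in cohort 2 alone (exact permutation p = 0.312) and -0.21 without the litter of SGA HF replicate 4 (exact permutation p = 0.0400). In this exact permutation test 2 of 9 members, SCD and ELOVL1, were lower at p < 0.05, against 6.81% of all genes, and 12.7% of all genes passed the adjusted threshold of 0.4, as both did.

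In the fit over all groups ELOVL1 differed by -0.13 for size (SE 0.0883, edgeR adjusted p = 0.841) and by -0.23 on CON (SE 0.122, adjusted p = 0.762). The paired fit gave -0.21 for size (SE 0.0701, adjusted p = 0.445), which did not pass. The paired call on CON was kept in 4 of 15 alternatives, with the sign held in all 15 (-0.39 to -0.27), and it was lost without litter 1, 4, 6, 7, 8, 9, 10 or 11 and in either cohort alone. Without litter 7, which was on HF and holds no CON piglets, the difference on CON stayed at -0.32 (adjusted p = 0.5001). The paired size difference passed without litter 9 (-0.25, adjusted p = 0.383) or litter 12 (-0.24, adjusted p = 0.399). Without litter 5, the fit over all groups also called ELOVL1 on CON, at -0.29 (adjusted p = 0.298), where 2.84% of all tested genes passed.

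Markers of oligodendrocytes, the myelin-forming cells, moved the same way as SCD and ELOVL1. In the paired fit all 12 markers were lower in SGA piglets (median -0.31, against 0.0028 for all genes), and 5 of 12 passed, CNP, MBP, MOBP, OPALIN and UGT8, the last of which is also among the ceramide genes below. On CON 5 of 12 passed as well, with a median of -0.41, and the same 5 passed in both comparisons without litter 7. On HF 11 of 12 were lower (median -0.22) and 1 passed (background 0.888%), or 0 without litter 7. Other markers moved on CON too, with 0 called. There 6 of 6 astrocyte markers (median -0.20), 5 of 7 oligodendrocyte progenitor markers (-0.17) and 4 of 6 microglia markers (-0.17) were lower. Of the neuron markers 5 of 6 were higher (0.15). For size over both diets, 6 of 6 microglia markers were lower (median -0.08) with 0 called. The progenitor marker OLIG1 passed there (-0.17, edgeR adjusted p = 0.325), where 2.57% of all tested genes did, but not without litter 7 (adjusted p = 0.460). In the fit over all groups 11 of 12 oligodendrocyte markers were lower (median -0.20), 4 at unadjusted p < 0.05 and 0 at adjusted p < 0.4. Their summed level ranged from 19307 to 25599 CPM in AGA CON, 15031 to 27214 in AGA HF, 13677 to 20819 in SGA CON and 12595 to 24709 in SGA HF, and no marker was at 0 in any library. Across the 12 litters, the littermate difference of ELOVL1 had a Pearson r of 0.50 with that of the markers (permutation p = 0.0950), and that of SCD an r of 0.15 (permutation p = 0.641), which without litter 7 were 0.54 and 0.13. The part of the oligodendrocyte markers in the SCD and ELOVL1 results was not tested.

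**Figure D4:**
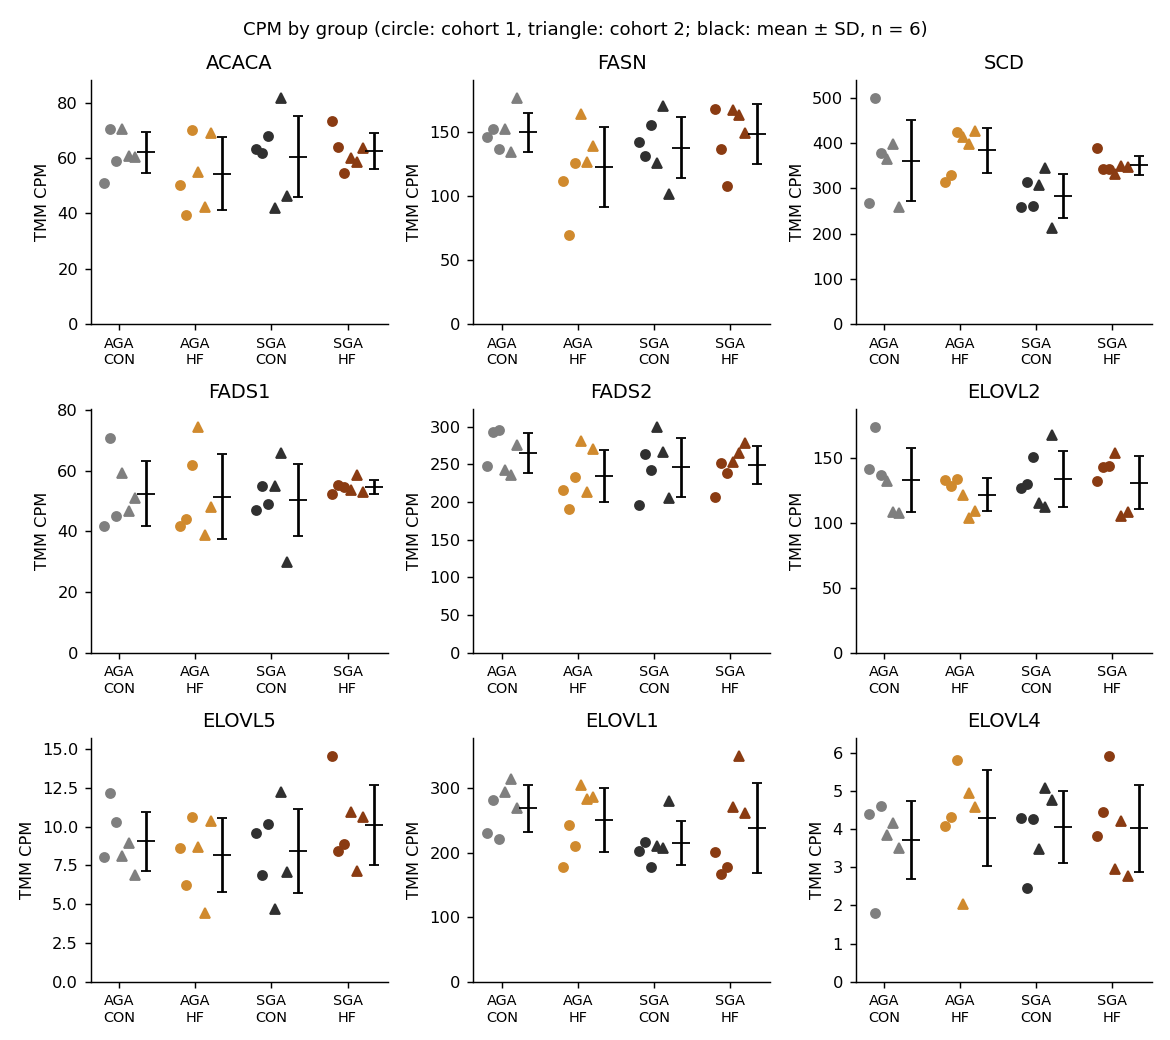
Level (TMM CPM) of each of the 9 tested genes in each library by group, with the group mean and SD, 6 piglets per group, circles for cohort 1 and triangles for cohort 2. The 4 groups overlap for every gene, and SCD is lowest in SGA CON (mean 283 CPM).

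FADS1, the delta-5 desaturase that yields arachidonic and eicosapentaenoic acid, ranged from 41.8 to 70.6 CPM in AGA CON (median 48.9), 38.7 to 74.5 in AGA HF (median 46.1), 29.9 to 65.9 in SGA CON (median 52.0) and 52.4 to 58.7 in SGA HF (median 54.1). The last group sat inside the ranges of AGA CON, AGA HF and SGA CON. For size, the fit over all groups gave 0.16 (SE 0.0738, unadjusted p = 0.0407, edgeR adjusted p = 0.714), and the paired fit gave 0.02 (SE 0.1002, unadjusted p = 0.808). On CON the 2 fits gave 0.21 and -0.07. SGA piglets were higher than their littermates in 7 of 12 litters (exact sign-flip permutation p = 0.856).

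FADS2, the delta-6 desaturase that opens the polyunsaturated route, ranged from 236 to 295 CPM in AGA CON, 191 to 281 in AGA HF, 197 to 299.9 in SGA CON and 207 to 279 in SGA HF, with medians of 261, 225, 253 and 253 CPM. It varied least of the tested members, with a coefficient of variation of 12.8% over the 24 libraries. Its size difference was 0.05 (95% interval -0.09 to 0.19) and its diet difference -0.08 (95% interval -0.22 to 0.05).

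ELOVL2, which elongates the long polyunsaturated chains on the way to docosahexaenoic acid, had group medians of 135 CPM in AGA CON, 125 in AGA HF, 128 in SGA CON and 138 in SGA HF, within a span of 104 to 174 CPM. Its largest difference was the interaction, 0.21 (SE 0.107, unadjusted p = 0.0604, edgeR adjusted p = 0.750), and within litters this was 0.09 (SE 0.142). ELOVL5, which elongates the earlier polyunsaturated intermediates, had medians of 8.51, 8.65, 8.33 and 9.78 CPM in the same order. ELOVL4, the elongase of the longest chains, had medians of 4.01, 4.45, 4.28 and 4.02 CPM. ELOVL5 and ELOVL4 had 1637 and 727 reads over all libraries, and size differences of 0.01 (SE 0.105) and -0.06 (SE 0.149).

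The diet comparison was repeated over litters, since piglets of a litter shared a diet. Over litter sums 0 of 9 members passed, with or without litter 7, where 1 of 16326 genes did (0.00613%), and 0 of 9 reached unadjusted p < 0.05 (background 3.98%). SCD had the largest difference, 0.18 in favour of HF (SE 0.115, unadjusted p = 0.140, edgeR adjusted p = 0.999). The 6 HF litters averaged 336 to 388 CPM (368 ± 19.9, SD) and the 6 CON litters 235 to 407 CPM (322 ± 64.7, SD), so the CON litters enclosed the HF litters. By an exact permutation test on litter means SCD had p = 0.102, and the other 8 members lay between 0.333 and 0.985, where 4.1% of all genes fell under 0.05 and the smallest possible p is 0.00216.

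Cohort was compared next, since the litters arrived in 2 cohorts. Over litter sums with diet and sex in the model, 3 of 9 members passed between cohorts 1 and 2, against 8.97% of all tested genes. ELOVL1 was higher in cohort 2 by 0.38 (SE 0.0804, edgeR adjusted p = 0.0571), and FASN by 0.21 (SE 0.0773, adjusted p = 0.289). ELOVL2 was lower by 0.22 (log2 difference -0.22, SE 0.081, adjusted p = 0.295). The ELOVL1 litter means ran from 189.6 to 249.5 CPM in the 6 litters of cohort 1. In those of cohort 2 they ran from 253 to 317 CPM, with no overlap. FASN litter means ran from 103 to 146 against 139 to 166 CPM and ELOVL2 from 132 to 152 against 104 to 138 CPM, both with overlap. By single library ELOVL1 overlapped too, at 168 to 283 CPM in cohort 1 and 208 to 351 CPM in cohort 2. How many of all genes had litter means without overlap was not counted. ELOVL1 passed whichever litter was left out, with 0.32 without litter 7 (edgeR adjusted p = 0.103). The FASN call was lost without litter 3, 5 or 7, and the ELOVL2 call without litter 3, 4, 9 or 10. Of the 12 oligodendrocyte markers, 9 were called higher in cohort 2 (median 0.40), as were 4 of 6 microglia markers, while 2 of 6 astrocyte markers were called lower. Without litter 7 the 9 oligodendrocyte markers passed again, but 1 of 6 microglia markers did. Other lists then had more calls, with 6 of 6 neuron markers in place of 1 (5 higher, 1 lower). Endothelial markers had 4 of 5 in place of 1, all lower. Astrocyte markers had 4 of 6 in place of 2, all lower, and oligodendrocyte progenitor markers 4 of 7 in place of 3. The number of all genes called for cohort also changed with the litter left out, as given below. These marker counts are therefore not read as results about the lists. Cohorts, which the labels define as litters brought in together, held both diets and both sizes equally, but not both sexes, with 4 of 6 litters male in cohort 1 and 2 of 6 in cohort 2. Without sex in the model the same 3 members passed, among 2724 genes in place of 1465.

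**Figure D5:**
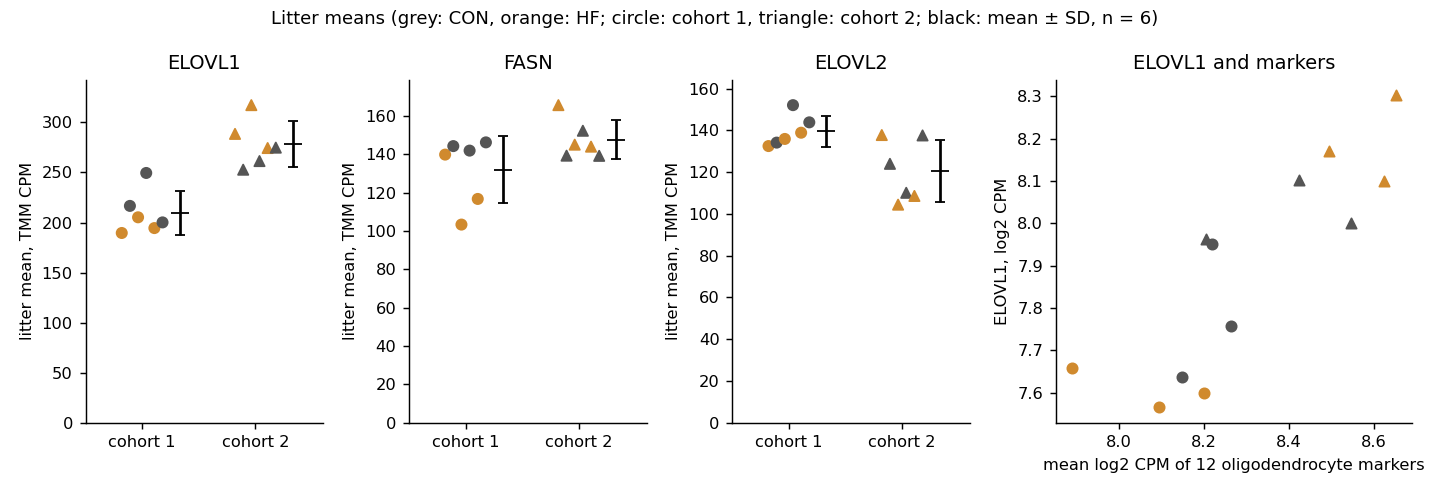
Litter mean level (TMM CPM) of ELOVL1, FASN and ELOVL2 in the 6 litters of each cohort with mean and SD (grey CON, orange HF), and, at the right, ELOVL1 against the mean of 12 oligodendrocyte markers (both log2 CPM, 1 point per litter). Litter means of ELOVL1 do not overlap between cohorts (189.6 to 249.5 against 253 to 317 CPM), while its single libraries do.

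Among the members, 36 pairwise correlations of litter means were computed, with 9 of members against the oligodendrocyte marker mean and 9 of littermate differences, 54 in all. FADS1 and SCD varied together over the 12 litters (Pearson r = 0.78, Spearman rho = 0.70, adjusted permutation p = 0.0218 for r and 0.257 for rho). Without the 2 litters farthest from the median r was 0.65, and it was 0.86 in cohort 1 (exact permutation p = 0.0236) and 0.73 in cohort 2 (exact permutation p = 0.124). ELOVL5 and ACACA had r = 0.82 and rho = 0.80 (adjusted permutation p = 0.0218 and 0.0824), with r = 0.79 without the 2 farthest litters, 0.75 in cohort 1 (exact permutation p = 0.0958) and 0.89 in cohort 2 (exact permutation p = 0.0194). ELOVL1 and the oligodendrocyte marker mean had r = 0.85 and rho = 0.87 (adjusted permutation p = 0.0218 and 0.0275), and 0.78 without the 2 farthest litters. Within cohorts that last relation was 0.39 (exact permutation p = 0.408) and 0.67 (exact permutation p = 0.154). Without litter 7 the relations were 0.80 for FADS1 and SCD, 0.85 for ELOVL5 and ACACA, and 0.84 for ELOVL1 and the markers.

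The rest of the pathway was read from lists of related genes. In the fit over all groups, 0 of 18 other tested synthesis, elongation and desaturation enzymes, 0 of 15 regulators, 0 of 23 genes of fatty acid uptake, activation and membrane incorporation, 0 of 9 of peroxisomal chain shortening and 0 of 10 ceramide synthesis and hydroxylation genes were called for size, diet or interaction. The list medians for size were 0.03, -0.01, -0.0015, 0.04 and -0.04. Among the enzymes, the genes of smallest p for size were TECR, the last enzyme of the elongation cycle (0.14, unadjusted p = 0.00513), and CYB5A, the cytochrome b5 that feeds electrons to desaturases (-0.14, unadjusted p = 0.0107). Among regulators these were PPARD (0.13, unadjusted p = 0.00462) and MBTPS2, a protease that activates SREBP (-0.31, unadjusted p = 0.0277). UGT8, which makes the myelin lipid galactosylceramide, had -0.21 (unadjusted p = 0.0144), and CERS2, the ceramide synthase for very long chains, -0.19 (unadjusted p = 0.0286). For diet the smallest p was that of HACD1, a dehydratase of the elongation cycle, at 0.29 (unadjusted p = 0.00919). FABP7, the brain fatty acid binding protein, was at -0.18 (unadjusted p = 0.00947).

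In the paired fit some of these genes passed for size, where 2.57% of all tested genes did (1.52% as lower), and they are named because they passed. Of the other enzymes 3 of 18 were lower in SGA piglets, namely ELOVL7, another elongase (-0.36, edgeR adjusted p = 0.0997), CYB5A (-0.23) and ME1, a source of NADPH (-0.22). Of the regulators 2 of 15 were lower, INSIG1, a brake on SREBP processing (-0.24), and MID1IP1, an activator of acetyl-CoA carboxylase (-0.21). Of the ceramide genes 2 of 10 were lower, CERS2 (-0.32, edgeR adjusted p = 0.120) and UGT8 (-0.34, edgeR adjusted p = 0.127), and on CON also FA2H, which hydroxylates myelin fatty acids (-0.33). ACSL4, which activates arachidonic acid, was higher (0.21), 1 of 23 genes of its list. The peroxisomal list had 0 of 9 called for size and 1 for the interaction, HSD17B4 (-0.37), a step in making docosahexaenoic acid. The paired fit without litter 7 called 173 genes for size in place of 420 (1.06% of those tested). It kept ELOVL7, INSIG1, MID1IP1, CERS2 and UGT8 for size and lost CYB5A, ME1, ACSL4, FA2H on CON and HSD17B4.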

How the data were processed

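Hippocampal polyA RNA of 24 piglets was sequenced (stranded single-end libraries) and the authors deposited raw read counts per gene, 1 table per library. Per the submitters' processing notes and the study's methods, reads were demultiplexed with bcl2fastq 2.17.1.14, trimmed with Trimmomatic 0.33, aligned with STAR 2.5.2a to Sscrofa10.2 and counted over exons by strand with featureCounts (Subread 1.5.0). RNA quality was low by the average quality number in the study's methods, which tie it to unspliced RNA. Any effect on the counts or on levels per kilobase was not tested. An entry without a gene identifier (0.613 to 1.615% of reads) was left out. Identifiers were matched to symbols for 23036 of 38882 genes, 15993 of them with a named symbol.

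Genes at 1 CPM in at least 3 libraries were kept (16326 kept, 22556 removed, ELOVL6 among the latter), fewer than the study's own use of this rule left, for a reason not found. The main test was edgeR 4.0.16 quasi-likelihood with TMM scaling, the 4 groups, sex and 5 surrogate variables (sva 3.50.0), Benjamini-Hochberg adjusted over 7 contrasts together, with calls at adjusted p < 0.4. Common biological coefficient of variation was 0.117. Littermates were further compared by a litter block (adjusted over its 4 contrasts), by exact sign-flip permutation of 12 litter differences of log2 CPM (prior count 2) and, for diet and cohort, by counts summed per litter with diet, cohort and sex (adjusted within each contrast). The labels name the litter, so the pairing comes from the design. Deviations of littermates from their group means correlated at 0.0144 to 0.329 (median 0.129), over 0.1 in 9 of 12 pairs. Piglets of different litters were not correlated in this way, and littermates share a cohort. These values therefore do not show likeness of littermates beyond that of a cohort. Fits with limma 3.58.1 (voom) and DESeq2 1.42.0, other scalings, filters and surrogate variables, and leaving out each litter, were alternatives, run in R 4.3.3. Permutation tests used Python 3.11.15 and scipy 1.17.1. The code was tested on simulated counts without litter or cohort effects and with a stricter threshold. That test does not give the error rate of the calls reported here.

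All 10 genes are named. Of other lists, genes called in any of the 7 contrasts are named, otherwise from the 2 of smallest p per list for size, diet and interaction, and for likeness the 2 genes of highest Pearson r (for ELOVL1 these are not reported here). Genes named from the paired or cohort fits were chosen after their values were seen. The 10 genes, the lists and the marker genes were chosen with earlier results of these data known. Replicates are separate piglets, but littermates are not independent of each other. Sequences of the genes were not used here.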

Additional observations from a re-analysis of the deposited data

Results flagged for a closer look

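Across 36 combinations of a tested gene and a group, 2 held a library far from the other 5 of its group, where chance alone would single out about 1 in 20. ELOVL1 in SGA CON replicate 6 was 279.8 CPM, against 178 to 216 CPM in the other SGA CON libraries, and the gap to its nearest neighbour was 0.627 of the range of the group. It was the SGA piglet of the only CON litter in which ELOVL1 was not lower than in the AGA littermate. Without this litter (litter 12), the paired ELOVL1 difference on CON was -0.39 (edgeR adjusted p = 0.319), against -0.32 with it.

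SCD in SGA HF replicate 1 was 390.0 CPM, against 333.0 to 350.0 CPM in the other 5 libraries of that group, with a gap of 0.701 of the range. Its litter was 1 of 2 in which SCD was higher in the SGA piglet. Without it (litter 1), the paired SCD difference for size was -0.27 (edgeR adjusted p = 0.197), against -0.23 with it. Leaving out a litter whose difference had the other sign lowers the estimate by construction, here and for ELOVL1 above, so neither shift is a test.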

How the results depend on the processing

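In the fit over all groups, the count of members called stayed at 0 for the interaction and for diet in SGA piglets under all alternatives run. Leaving out each litter in turn gave 0 to 1 member for size, diet, size on CON and size on HF, and 0 to 2 for diet in AGA piglets, in each case because of litter 5. With the replicate block the count became 1 for size and 2 for size on CON. It changed no other call, and diet could not be fitted with the block because each litter had 1 diet. Within the block, leaving out each litter gave 0 to 1 for size and 0 to 2 on CON, and both were 0 without the litter of SGA HF replicate 4 and 0 in cohort 1 alone or cohort 2 alone. The littermate permutation test gave 2 members, 0 in cohort 1 alone and 1 (SCD) in cohort 2 alone, where 6 litters allow no p below 0.0312. The cohort count was 3, and 1 to 3 when each litter was left out. Diet within a cohort has 3 against 3 litters, where an exact permutation test cannot go below p = 0.1. No difference changed sign while called. The cause of these changes was not tested. Over all genes, the 78 calls for size became 13 without surrogate variables, 300 with 3 of them, 43 with 1 CPM required in 6 libraries, 124 with no filter beyond 1 count, 53 with voom, 210 with DESeq2, 1200 adjusted within the contrast, 50 without SGA HF replicate 4, 14 to 1259 when each litter was left out and 420 with the block. The block's 420 became 173 without litter 7, and the 1465 for cohort became 2724 without sex and 296 to 2412 when each litter was left out. ELOVL6, with 58 reads in all and a model of 253 exon bases, did not pass the filter and was not tested.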

Other observations

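Over the 24 libraries, the genes whose log2 CPM was most like that of a member were RAB5B and NCOR1 for ACACA (Pearson r = 0.91 and 0.90), KIF1A and PLXNB1 for FASN (0.88 and 0.83) and CTNND2 and AUTS2 for ELOVL5 (0.87 and 0.86). For ELOVL4 these were GRIA2 and PRNP (both 0.84), for SCD EPB41L2 and LSS, the lanosterol synthase (0.83 and 0.80), for FADS1 HEPACAM and PREX1 (0.82 and 0.81), for FADS2 SREBF1 and ARHGEF1 (0.75 and 0.74) and for ELOVL2 UBE2L6 and ABLIM3 (both 0.74). These are descriptions, among 9385 genes searched, in which libraries share litters, cohorts and depth.

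Between cohorts, genes of the related lists passed as well, where 8.97% of 16326 tested genes did (668 higher, 797 lower). The genes below are named because they passed. Of the ceramide list 5 of 10 were called higher in cohort 2, namely CERS2 (0.31), CERS4 (0.21), FA2H (0.42), GAL3ST1 (0.25) and UGT8 (0.25), with a list median of 0.17 against -0.012 for all genes. Of the other enzymes 3 of 18 were called higher, ELOVL7 among them (0.30), and 2 lower, ACACB, the mitochondrial acetyl-CoA carboxylase, among them (-0.49). Of the regulators 3 of 15 were called higher, including SREBF2 (0.19), the master regulator of cholesterol synthesis. Of the uptake list 4 of 23 were called higher and 2 lower, the latter ACSL5 (-0.998) and ACSL6. Without the litter of SGA HF replicate 4, all 5 ceramide genes and all 5 enzymes passed again, as did 2 of the 3 regulators and 4 of the 6 uptake genes. The number of all genes called for cohort also changed with the litter left out, as given above.

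FADS1 varied little among SGA HF piglets, at 54.6 ± 2.29 CPM (SD, n = 6), against SDs of 10.7 in AGA CON, 13.9 in AGA HF and 12.0 in SGA CON. SCD had its smallest SD in the same group, 19.99 CPM against 90.1, 50.1 and 47.7 CPM. The difference in spread was not tested.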
